A study of Mus musculus with 12 samples.

Results

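Amino acid transporter genes are described here in sorted mouse T cells. They were taken as the rows of the count table whose symbol starts with Slc1a, Slc3a, Slc6a, Slc7a, Slc36a, Slc38a or Slc43a and which held at least 1 count in all libraries together. This gave 47 of 48663 gene rows, of which 44 are named as carriers and 3 are genes on the opposite strand of one (Slc36a1os, Slc36a3os and Slc7a6os). A further 20 rows with these symbol starts had 0 counts. Some of the carriers move other small molecules, such as taurine, creatine, nucleobases or neurotransmitters.

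The series holds 12 RNA sequencing libraries in 4 groups of 3, all from C57BL/6 mice that carry floxed Lrf alleles (lrf fl/fl, gene Zbtb7a, a zinc finger transcription factor). The first group, control IELp, are thymic precursors of intraepithelial lymphocytes (IEL) from Cd4 Cre- mice, sorted as TCRb+ CD4- CD8a- cells with high CD5 and PD-1, with CD122 and H-2Kb, and without CD44. KO IELp are the same population from Cd4 Cre+ mice, in which the recombinase is switched on in developing T cells. Control IEL are CD8aa cells (CD45+ TCRb+ CD4- CD8a+ CD8b-) from Cd4 Cre- mice with IEL as their source, and KO spleen cells are CD8aa cells of the same sort from Cd4 Cre+ mice with spleen as their source. The sources used here do not give the age of the mice or say whether animals were pooled. KO IELp against control IELp differ in genotype alone by their labels. KO spleen cells against control IEL differ in genotype and in tissue, which cannot be told apart, and the same holds for any difference between the step from IELp to CD8aa cells in control and KO cells. Each of these steps also changes cell stage and tissue together, and these cannot be told apart. A batch between the IELp and CD8aa libraries, if there was any, could not be told apart from a step either.

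Amino acids cross membranes through families of carriers. Light chains of the SLC7 family, such as LAT1, reach the cell surface paired with a heavy chain, CD98hc (Slc3a2) or rBAT (Slc3a1), and exchange 1 amino acid for another. SLC1 and SLC38 carriers couple uptake to sodium, SLC6 carriers to sodium and chloride, and some SLC36 carriers, such as PAT1 (Slc36a1), to protons. SLC43 carriers are facilitators that need no partner. T cells need leucine and glutamine uptake to grow and divide, and amino acids in the lysosome are sensed for the kinase complex mTORC1, which turns on protein synthesis.

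Levels are CPM, the counts of a gene scaled to the same total of gene counts in each library, given for replicates 1, 2 and 3 or as mean ± SD (n = 3). Gene counts per library ranged from 13432598 to 19947734. Fold changes are log2 values ± SE from edgeR's quasi-likelihood test on the counts, with Benjamini-Hochberg adjusted p-values over all tested genes and a threshold of 0.05. The model also scales libraries so that most genes do not move. On plain CPM the median of all genes lay 0.21 lower on the log2 scale in control IEL than in control IELp (log2(CPM + 1), limma), so a fold change from the model can be higher than the ratio of the CPM values. Whether replicates are separate animals is not in the labels, and the p-values rest on the spread of these samples alone, which may be technical. In bulk RNA, fewer cells of a type and less RNA per cell cannot be told apart.

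The targeted gene, Zbtb7a, had a mean of 45.5 ± 4.66 CPM in KO IELp and 61.3 ± 2.13 CPM in KO spleen cells, below 75.4 ± 6.27 CPM (control IELp) and 111 ± 8.91 CPM (control IEL). T cell markers were high in all libraries, and CD8aa IEL markers (Itgae, Gzma, Gzmb, Cd160 and Cd244) summed to between 34226 and 35491 CPM in control IEL but to between 873 and 889 CPM in KO spleen cells. The 20 markers of gut epithelium summed to between 525 and 759 CPM in control IEL, between 67.1 and 75.6 CPM in control IELp, between 67.1 and 69.1 CPM in KO IELp and between 14.1 and 17.2 CPM in KO spleen cells. Of these 20 markers, 1 or 2 were at 0 in each control IEL library and 8 to 15 in each other library. How far epithelial RNA enters the genes that were higher in control IEL was not tested. The 6 B cell markers summed to between 86.0 and 103 CPM in KO spleen cells, with none at 0, and to at most 61.3 CPM elsewhere. The 11 myeloid markers summed to between 50.2 and 81.8 CPM in KO spleen cells and to at most 31.9 CPM elsewhere. Control IEL replicate 3 stood apart from its group, with the highest epithelial sum. Its mean chi-square per gene was 13.0 and 18.2 against the other control IEL libraries, which stood 4.30 apart from each other.

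In all, 17 of the 47 genes reached a mean of 10 CPM in a group, 8 reached 1 CPM, and 22 stayed under 1 CPM in every group. Their summed level was 1984 ± 58.5 CPM in control IELp, 2015 ± 15.1 CPM in KO IELp, 1605 ± 35.9 CPM in control IEL and 1615 ± 23.5 CPM in KO spleen cells. The sum was thus lower in both CD8aa groups than in both IELp groups, with no overlap of libraries. On this scale the median log2 change of all genes was below 0 too (limma on CPM + 1). It was -0.21 in control IEL against control IELp and -0.10 in KO spleen cells against KO IELp. How much of the lower sum goes with that shift was not tested. Per kb of exon, with all annotated exons of a gene joined, the highest levels in control IELp were those of Slc1a5 (70.0 CPM per kb), Slc3a2 (52.2 CPM per kb) and Slc38a10 (50.2 CPM per kb). Which of these exons the cells use is not known, so this ranking of genes is rough. As a ratio of the highest to the lowest group mean, Slc43a1 had the widest range among the 17, from 0.264 CPM per kb in control IEL to 17.5 CPM per kb in KO spleen cells.

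**Figure D1:**
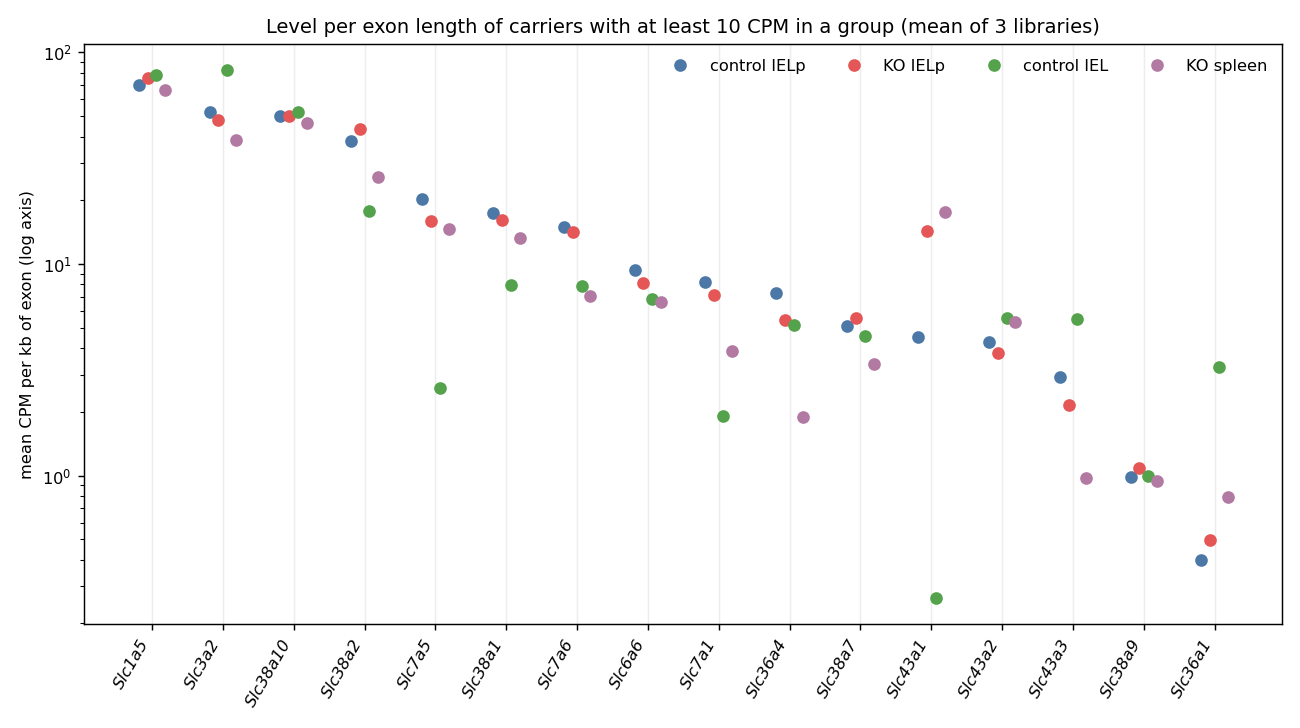
Mean level of the 16 carrier genes with at least 10 CPM in a group, in CPM per kb of exon on a log axis, with 1 point per group (mean of 3 libraries). Slc43a1 spans 0.264 to 17.5 CPM per kb, whereas Slc38a9 lies between 0.939 and 1.09 CPM per kb in all groups.

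With the genotype alone changed, edgeR called 2 of 25 tested transporter genes higher and 3 lower in KO IELp than in control IELp, where 6.48% of all 14629 tested genes were higher and 6.58% lower. Each of these counts was 1 when control IELp replicate 2, or KO IELp replicate 3, was left out. Between control IEL and control IELp, 9 of 25 were higher and 9 lower, beside 31.9% and 32.9% of all tested genes. Between KO spleen cells and control IEL, 7 of 25 were higher and 9 lower, beside 29.1% and 29.2%. Between KO spleen cells and KO IELp, 3 of 24 were higher and 9 lower, beside 22.6% and 22.4%. Called in either direction were 13.1%, 64.8%, 58.2% and 45.0% of all tested genes in the 4 comparisons, so a call was common outside the IELp comparison. In KO spleen cells against KO IELp lower calls were 9 of 24 transporters beside 22.4% of all genes, a difference that was not tested. The median log2 fold change of the tested transporter genes was 0.01, 0.06, -0.27 and -0.18 in these 4 comparisons, beside -0.01, -0.01, 0.00 and 0.00 over all tested genes. With scaling to the total count alone (limma on CPM + 1), the calls among the transporters were 7 higher and 11 lower in control IEL against control IELp, 7 and 8 in KO spleen cells against control IEL, and 3 and 11 in KO spleen cells against KO IELp. That scaling moved the share of all calls that were higher from 49.2% to 34.7%, from 49.9% to 59.4% and from 50.3% to 35.7% in these 3 comparisons. The comparisons share groups of libraries with each other, so they are not independent.

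**Figure D2:**
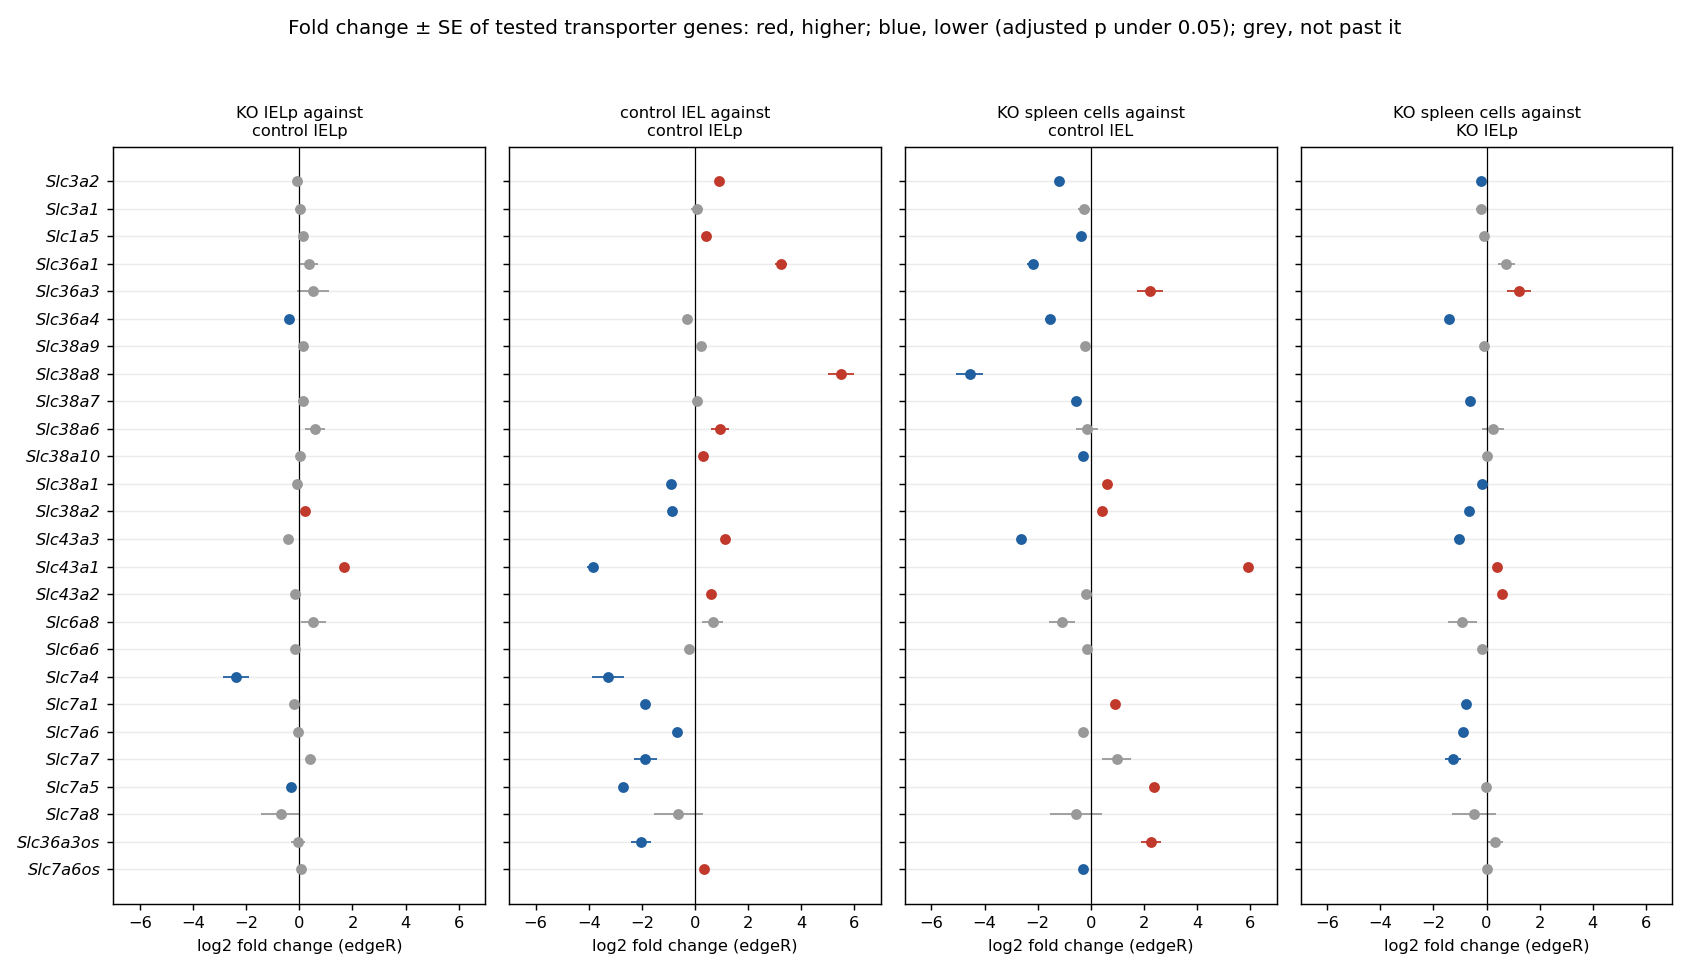
Log2 fold changes ± SE from edgeR of the transporter genes tested in each pair of groups, with genes past an adjusted p of 0.05 in red (higher) or blue (lower). Slc43a1 has the largest changes of genes at 10 CPM or more, -3.85 in control IEL against control IELp and 5.92 in KO spleen cells against control IEL.

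Among the SLC43 facilitators, Slc43a1 changed in all 4 pairs of groups. It encodes LAT3, which carries leucine and other large neutral amino acids, and lies at chr2:84838850-84863594 (mm10, plus strand, GENCODE M21). Its promoter in RefSeq is 1 of 6 among 37 matched transporter genes that hold the E box CACGTG (which reads the same on both strands) in the 250 bases before the start, or 16.2%, beside 6.86% of 27025 genes. The E box is a binding motif of MYC, MITF and TFEB family factors. A second motif, TGATGNAA (called CARE), was scanned on both strands of the same windows. It was found in 2 of the 37 genes (Slc7a7 and Slc7a11), or 5.41%, beside 3.91% of all genes. Neither share was tested against that of all genes. Slc7a5, Slc1a5, Slc38a1, Slc6a6 and Slc43a3 were among the genes without a matched promoter, so they were not scanned. Of the 6 genes with the E box, Slc1a6, Slc6a16 and Slc6a3 held 8, 2 and 26 counts in all libraries together. Slc43a1, Slc36a1 and Slc38a7 were tested, and their windows are shown to place the E box in genes whose levels moved in different ways. The sequences are from RefSeq (GRCm38.p6), written 5′ to 3′ on the gene's strand, with the E box in capitals. It begins 64 bases before the RefSeq start of Slc43a1, 31 before that of Slc36a1 and 34 before that of Slc38a7. The windows are chr2:84840073-84840322 on the plus strand, chr11:55204090-55204339 on the plus strand and chr8:95853492-95853741 on the minus strand. RefSeq and GENCODE M21 place some starts differently. By GENCODE M21 the window of Slc43a1 lies inside the gene span, and that of Slc38a7 overlaps its span (chr8:95835920-95853539). A match is a run of letters and not a measured site.
Slc43a1: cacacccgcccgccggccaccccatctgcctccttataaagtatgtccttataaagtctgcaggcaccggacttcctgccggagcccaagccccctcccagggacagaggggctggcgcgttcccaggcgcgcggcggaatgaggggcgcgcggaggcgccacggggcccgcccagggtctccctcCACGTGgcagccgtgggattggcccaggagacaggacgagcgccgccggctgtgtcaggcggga
Slc36a1: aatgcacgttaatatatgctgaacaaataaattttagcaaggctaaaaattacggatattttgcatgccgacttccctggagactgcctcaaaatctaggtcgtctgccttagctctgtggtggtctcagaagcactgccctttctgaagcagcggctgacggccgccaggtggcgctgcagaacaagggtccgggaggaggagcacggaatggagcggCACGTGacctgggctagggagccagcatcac
Slc38a7: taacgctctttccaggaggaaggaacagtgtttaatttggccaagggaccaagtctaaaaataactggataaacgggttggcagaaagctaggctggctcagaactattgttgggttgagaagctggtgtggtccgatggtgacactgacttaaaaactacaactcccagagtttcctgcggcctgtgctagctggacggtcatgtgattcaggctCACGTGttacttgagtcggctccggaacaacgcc

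Slc43a1 was at 31.7, 22.4 and 23.3 CPM in control IELp and at 81.0, 86.8 and 76.6 CPM in KO IELp. In control IEL it was at 1.60, 1.42 and 1.52 CPM, and in KO spleen cells at 101, 98.9 and 100.3 CPM. The 4 groups did not overlap, and every control IEL library lay below 2 CPM. The gene rose 3.21-fold in KO IELp against control IELp (log2 fold change 1.68 ± 0.12, edgeR adjusted p = 2.6e-07). It fell 14.5-fold in control IEL against control IELp (-3.85 ± 0.20, edgeR adjusted p = 4.1e-08) and was 60.6-fold higher in KO spleen cells than in control IEL (5.92 ± 0.11, edgeR adjusted p = 2.2e-10). From KO IELp to KO spleen cells it rose 1.33-fold (0.41 ± 0.07, edgeR adjusted p = 2.9e-04). The step from IELp to CD8aa cells therefore went down in control and up in KO cells, and its difference passed the test in a model of all 12 libraries (-4.24 ± 0.20, edgeR adjusted p = 6.0e-11). Leaving out any 1 library kept each of these calls. In the IELp comparison the log2 fold change was then between 1.59 and 1.86.

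The other SLC43 genes did not share this pattern. Slc43a3, which encodes a nucleobase carrier, was at 15.4, 13.0 and 10.7 CPM in control IELp, against 9.90, 10.4 and 8.65 CPM in KO IELp, at 27.5, 25.3 and 21.0 CPM in control IEL and at 3.66, 5.40 and 4.02 CPM in KO spleen cells. Control IEL lay above and KO spleen cells below all IELp libraries. It rose in control IEL against control IELp (1.14 ± 0.16, edgeR adjusted p = 1.0e-04) and was lower in KO spleen cells than in control IEL (-2.61 ± 0.18, adjusted p = 1.1e-06) and in KO IELp (-1.03 ± 0.20, adjusted p = 8.1e-04). Slc43a2, which encodes LAT4, a further carrier of large neutral amino acids, was at 42.9 ± 3.62 CPM in control IELp, against 55.7 ± 6.70 CPM in control IEL (0.61 ± 0.11, edgeR adjusted p = 7.3e-04). It also rose from 38.0 ± 3.15 CPM in KO IELp to 53.2 ± 2.77 CPM in KO spleen cells (0.60 ± 0.09, adjusted p = 1.4e-04). In KO IELp against control IELp neither passed the test, with log2 fold changes of -0.41 (95% interval -0.73 to -0.09) for Slc43a3 and -0.15 (-0.35 to 0.04) for Slc43a2.

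**Figure D3:**
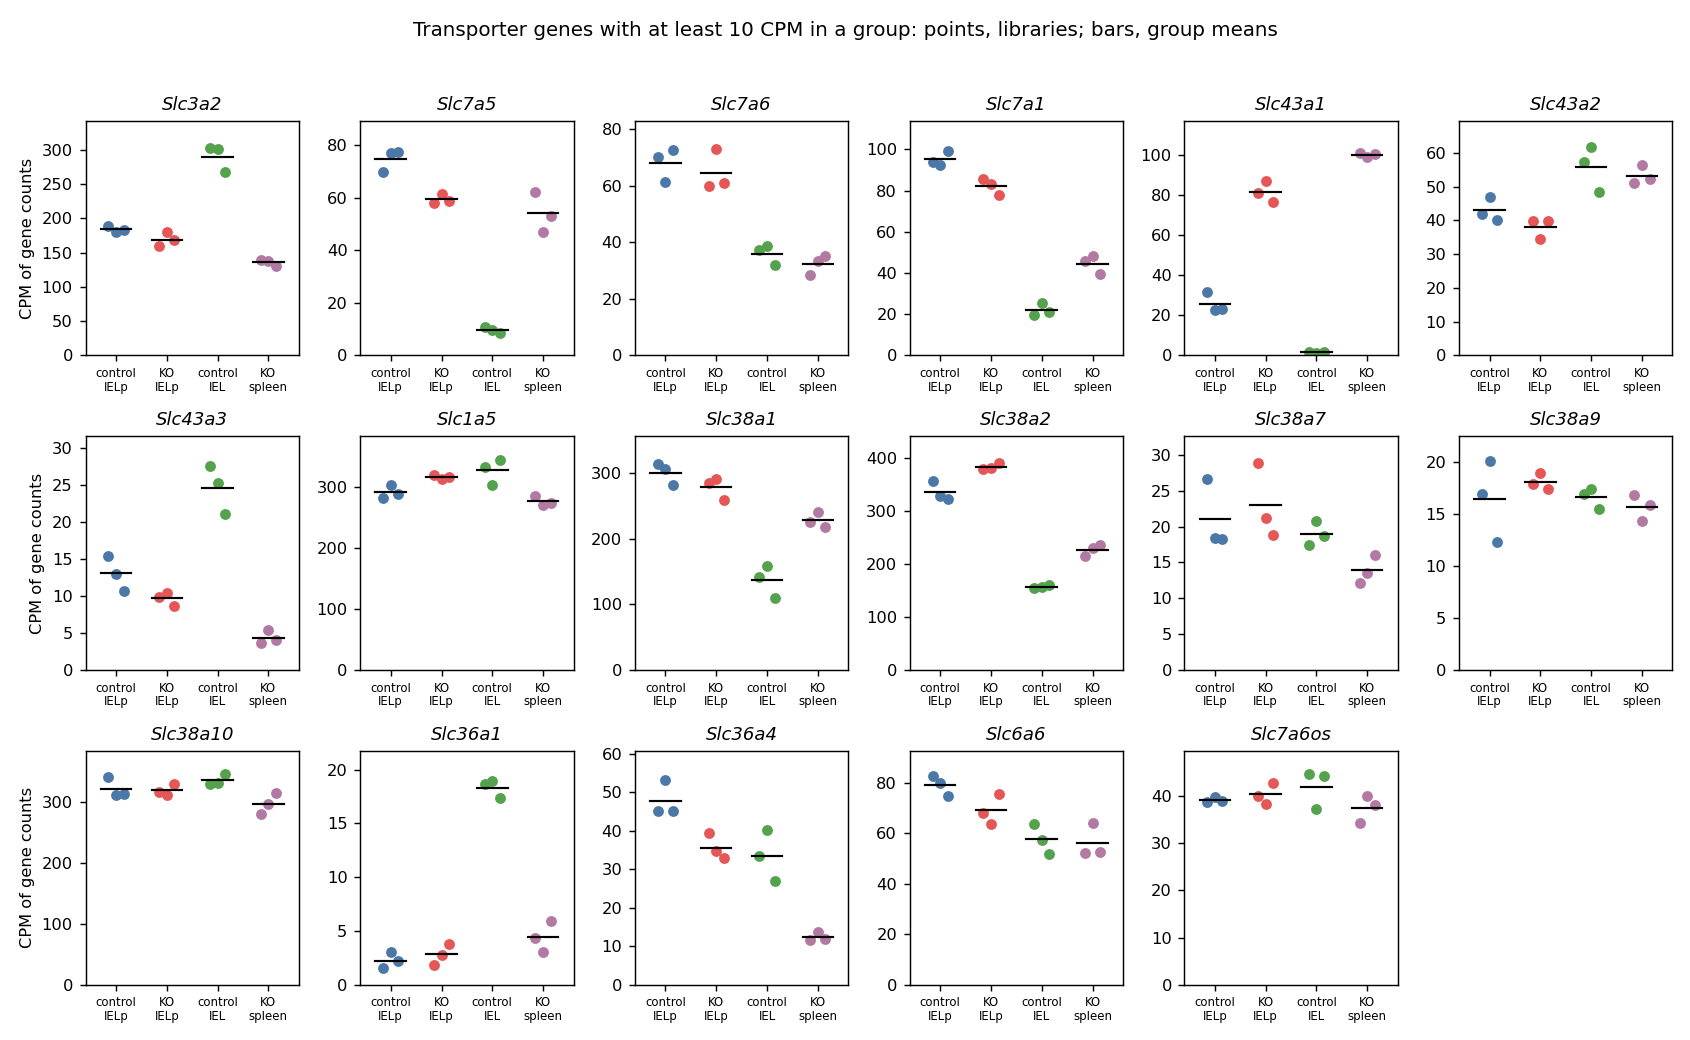
CPM of gene counts of the 17 genes with at least 10 CPM in a group, 1 panel per gene with its own axis from 0, with points for libraries and bars for means of 3. Slc43a1, Slc7a5 and Slc7a1 are lowest in control IEL, while Slc3a2, Slc43a3 and Slc36a1 are highest there.

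The heavy chain gene Slc3a2 and the light chain gene Slc7a5 moved in opposite directions between control IELp and control IEL. Slc3a2 (chr19:8706882-8723369, minus strand) was at 189, 180.4 and 183 CPM in control IELp, at 159, 180.0 and 169 CPM in KO IELp, at 302, 301 and 267 CPM in control IEL and at 139.7, 138 and 131 CPM in KO spleen cells. Control IEL lay above and KO spleen cells below every IELp library. Slc3a2 rose 1.85-fold in control IEL against control IELp (0.89 ± 0.07, edgeR adjusted p = 9.8e-07) and was 2.32-fold lower in KO spleen cells than in control IEL (-1.21 ± 0.07, adjusted p = 3.0e-07). Its drop from KO IELp to KO spleen cells was small (-0.20 ± 0.06, edgeR adjusted p = 0.017), and was lost without KO IELp replicate 2 (adjusted p = 0.090) or without KO spleen replicate 3 (adjusted p = 0.057). With the genotype alone changed it gave -0.10 (95% interval -0.22 to 0.02, edgeR adjusted p = 0.35).

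Slc7a5 encodes LAT1, the light chain that carries leucine and other large neutral amino acids, and lies at chr8:121881150-121907694 (minus strand). It was at 70.0, 77.3 and 77.6 CPM in control IELp, against 58.0, 61.4 and 59.0 CPM in KO IELp. In control IEL it was at 10.6, 9.72 and 8.58 CPM, and in KO spleen cells at 62.3, 47.1 and 53.1 CPM. Control IEL lay far below all other libraries, while KO spleen cells overlapped KO IELp. It fell 6.63-fold in control IEL against control IELp (-2.73 ± 0.11, edgeR adjusted p = 6.8e-09) and was 5.17-fold higher in KO spleen cells than in control IEL (2.37 ± 0.14, adjusted p = 3.2e-07). From KO IELp to KO spleen cells the log2 fold change was -0.02 (95% interval -0.22 to 0.17). In KO IELp it fell 1.24-fold against control IELp (-0.31 ± 0.08, edgeR adjusted p = 0.018). That call was lost without control IELp replicate 2 (adjusted p = 0.074), KO IELp replicate 1 (0.070) or KO IELp replicate 3 (0.065), and in 1 edgeR fit of all 12 libraries (0.062). Per kb of exon, Slc3a2 was above Slc7a5 in control IELp (52.2 against 20.2 CPM per kb) and in control IEL (82.2 against 2.60 CPM per kb). The light chain gene Slc7a6 stood at 14.9 CPM per kb in control IELp and 7.86 CPM per kb in control IEL, where it was above Slc7a5.

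The remaining light chains were called lower or not called. Slc7a6 encodes y+LAT2, which exchanges arginine for glutamine and other neutral amino acids. It was at 68.0 ± 5.86 CPM in control IELp, 64.7 ± 7.26 CPM in KO IELp, 35.9 ± 3.46 CPM in control IEL and 32.3 ± 3.53 CPM in KO spleen cells. It fell on both steps from IELp to CD8aa cells, by a log2 fold change of -0.69 ± 0.11 in control (edgeR adjusted p = 1.9e-04) and -0.89 ± 0.11 in KO cells (adjusted p = 1.8e-05). Slc7a7, the related y+LAT1, was at 4.91, 4.35 and 6.92 CPM in control IELp, against 0.430, 1.16 and 2.12 CPM in control IEL, and fell there too (-1.87 ± 0.44, edgeR adjusted p = 0.0035, and -2.52 without control IEL replicate 3). In KO cells it went from 6.67, 7.16 and 7.17 CPM in IELp to 2.01, 4.29 and 1.71 CPM in spleen cells (-1.26 ± 0.30, adjusted p = 0.0038). Slc7a8, which encodes LAT2, was called in no pair, with means between 0.512 and 1.25 CPM. Slc3a1, the heavy chain rBAT, had means between 5.15 and 6.49 CPM and was called in no pair, and its partner Slc7a9 is given with the low genes. Slc7a11, the light chain xCT that takes up cystine, held 5 counts in all 12 libraries.

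Among the cationic carriers, Slc7a1 was highest in control IELp and lowest in control IEL. It encodes CAT1, the main arginine and lysine carrier of many cells. It was at 93.8, 92.5 and 99.3 CPM in control IELp, at 85.6, 83.1 and 77.9 CPM in KO IELp, at 19.5, 25.6 and 21.2 CPM in control IEL and at 45.8, 48.4 and 39.5 CPM in KO spleen cells. No groups overlapped, and control IEL was lowest. It fell 3.67-fold in control IEL against control IELp (-1.88 ± 0.11, edgeR adjusted p = 1.0e-07) and 1.70-fold in KO spleen cells against KO IELp (-0.77 ± 0.09, adjusted p = 1.2e-05). It was 1.86-fold higher in KO spleen cells than in control IEL (0.89 ± 0.13, adjusted p = 2.2e-04). In KO IELp its lower level did not pass the test (-0.19 ± 0.07, edgeR adjusted p = 0.11).

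Slc7a4, a member of the same family with no well described substrate, had low counts. It was at 4.78, 3.29 and 1.10 CPM in control IELp, against 0.528, 0.662 and 0.527 CPM in KO IELp, and at 0.307, 0.322 and 0.163 CPM in control IEL. All KO IELp and control IEL libraries lay below the control IELp libraries, which varied among themselves. It fell in KO IELp against control IELp (-2.39 ± 0.48, edgeR adjusted p = 0.0041) and in control IEL against control IELp (-3.29 ± 0.60, adjusted p = 6.3e-04). Leaving out any 1 library kept both calls, and with limma on CPM + 1, which shrinks changes of low genes, the log2 differences were -1.25 and -1.57, still past the threshold. Its level in KO spleen cells was 1.00, 0.318 and 0 CPM, and it did not pass the filter on low counts in the comparisons with that group. Among the pairs of groups it was thus tested only against control IELp, where it is highest.

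Of the glutamine carriers, Slc1a5 encodes ASCT2, a sodium-dependent exchanger of neutral amino acids. It was at 282, 304 and 289.6 CPM in control IELp, at 320.3, 314 and 316 CPM in KO IELp, at 334, 304 and 346 CPM in control IEL and at 286, 270.3 and 274 CPM in KO spleen cells. Control IEL overlapped control IELp by its replicate 2. Slc1a5 rose in control IEL against control IELp (0.40 ± 0.07, edgeR adjusted p = 3.8e-04) and was lower in KO spleen cells than in control IEL (-0.36 ± 0.06, adjusted p = 7.9e-04). Over the other settings of the model these log2 fold changes were as small as 0.17 and -0.24, still past the threshold. All KO IELp libraries lay above control IELp, yet the change did not pass the test (0.14 ± 0.05, edgeR adjusted p = 0.079).

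Slc38a1 and Slc38a2 encode SNAT1 and SNAT2, sodium-coupled carriers of glutamine, alanine and other small neutral amino acids, and both were lowest in control IEL. Slc38a1 was at 314, 305 and 281 CPM in control IELp, at 285, 292 and 259 CPM in KO IELp, at 142, 159 and 109.6 CPM in control IEL and at 226, 241 and 218 CPM in KO spleen cells. Slc38a2 was at 357, 327 and 322 CPM, 379, 381 and 389.6 CPM, 154, 156 and 159.7 CPM and 214, 231 and 236 CPM in the same groups. Groups of libraries did not overlap for either gene, other than control and KO IELp for Slc38a1. In control IEL against control IELp they fell 1.87-fold (-0.90 ± 0.12, edgeR adjusted p = 5.4e-05) and 1.82-fold (-0.87 ± 0.06, adjusted p = 6.5e-07). KO spleen cells exceeded control IEL by 0.62 ± 0.12 for Slc38a1 (edgeR adjusted p = 0.0014) and 0.41 ± 0.06 for Slc38a2 (adjusted p = 2.5e-04). Against KO IELp, KO spleen cells were lower for Slc38a2 (-0.64 ± 0.05, edgeR adjusted p = 2.3e-07).

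For Slc38a1 the drop from KO IELp to KO spleen cells was -0.17 ± 0.06 (edgeR adjusted p = 0.03) and was lost without KO IELp replicate 1 or 2 or KO spleen replicate 1 or 3 (adjusted p between 0.082 and 0.13), and in 1 fit of all 12 libraries (0.18). Slc38a2 was, beside Slc43a1, the transporter gene called higher in KO IELp than in control IELp (0.21 ± 0.05, edgeR adjusted p = 0.013). That small rise was lost without control IELp replicate 2 (adjusted p = 0.068) or KO IELp replicate 3 (0.055).

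Slc38a8 had the largest step up among the tested transporters. It encodes SNAT8, a glutamine carrier best known from neurons and the eye, and lies at chr8:119479602-119501698 (minus strand). It held 96, 96 and 122 counts in control IEL (5.90, 6.18 and 6.63 CPM), against 5, 2 and 0 counts in control IELp, 8, 11 and 10 counts in KO IELp and 10, 5 and 0 counts in KO spleen cells. All control IEL libraries lay above all others, and control IEL replicate 3 was not apart from the other 2 libraries of its group. Among the pairs of groups, the filter on low counts kept Slc38a8 only where control IEL entered, the group where it is high. The p-values below thus add no support beyond these counts. Slc38a8 was not tested in the other pairs. It rose in control IEL against control IELp (5.49 ± 0.49, edgeR adjusted p = 2.9e-06) and was lower in KO spleen cells than in control IEL (-4.56 ± 0.51, adjusted p = 3.4e-05). With so few counts outside control IEL the size of the change was uncertain. It was 6.63 without control IELp replicate 1 and 2.66 with limma on CPM + 1, and the difference from KO spleen cells was -5.41 without KO spleen replicate 1 and -2.55 with limma on CPM + 1, all past the threshold. The epithelial markers are higher in control IEL as well, and their part in this result was not tested.

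The other SLC38 genes tested changed by less than 2-fold in every pair. Slc38a10, whose substrates are less well known, was at 323 ± 17.3 CPM in control IELp, 320.0 ± 8.97 CPM in KO IELp, 337 ± 8.98 CPM in control IEL and 298 ± 17.2 CPM in KO spleen cells. Its rise in control IEL against control IELp (0.29 ± 0.06, edgeR adjusted p = 0.0018) was lost with scaling to the total count (log2 fold change 0.06, limma on CPM + 1, adjusted p = 0.39), and the groups overlapped. It was lower in KO spleen cells than in control IEL (-0.30 ± 0.06, adjusted p = 0.0017). Slc38a7, the lysosomal glutamine carrier SNAT7, was at 19.0 ± 1.65 CPM in control IEL and 13.9 ± 1.98 CPM in KO spleen cells (-0.57 ± 0.14, edgeR adjusted p = 0.0056). From KO IELp (23.0 ± 5.23 CPM) it fell to KO spleen cells (-0.61 ± 0.17, adjusted p = 0.0091), a call lost without KO IELp replicate 1 (adjusted p = 0.055). Slc38a9, the lysosomal carrier that signals arginine to mTORC1, had means between 15.7 and 18.1 CPM and was called in no pair. Slc38a6, at 1.15 ± 0.126 CPM in control IELp, against 1.88 ± 0.310 CPM in control IEL, was called higher there (0.94 ± 0.33, edgeR adjusted p = 0.029), but not without control IELp replicate 2 or 3 or control IEL replicate 1 or 3 (adjusted p between 0.065 and 0.10) and not with DESeq2 (adjusted p = 0.078).

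Genes of the SLC36 carriers PAT1 and PAT4 were both lower in KO spleen cells than in control IEL. Slc36a1 (chr11:55204350-55236330, plus strand) encodes PAT1, which moves small neutral amino acids out of lysosomes and into cells. It was at 1.50, 3.00 and 2.21 CPM in control IELp, at 1.85, 2.77 and 3.80 CPM in KO IELp, at 18.7, 18.9 and 17.4 CPM in control IEL and at 4.36, 3.07 and 5.88 CPM in KO spleen cells. Control IEL stood above all other libraries, which lay below 6 CPM. Slc36a1 rose 9.49-fold in control IEL against control IELp (3.25 ± 0.22, edgeR adjusted p = 3.1e-07, and 2.60 with limma on CPM + 1) and was 4.55-fold lower in KO spleen cells than in control IEL (-2.19 ± 0.21, adjusted p = 1.2e-05). From KO IELp to KO spleen cells it did not pass the test (0.75 ± 0.31, edgeR adjusted p = 0.07). The epithelial markers also stood highest in control IEL, and their part in this result was not tested.

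Slc36a4, which encodes PAT4, a carrier of proline and tryptophan, was at 45.1, 53.3 and 45.1 CPM in control IELp, against 39.5, 34.7 and 32.8 CPM in KO IELp, at 33.5, 40.1 and 26.8 CPM in control IEL and at 11.7, 13.6 and 11.9 CPM in KO spleen cells. KO spleen cells lay below all other libraries. They were 2.93-fold lower than control IEL (-1.55 ± 0.16, edgeR adjusted p = 1.9e-05) and 2.65-fold lower than KO IELp (-1.41 ± 0.12, adjusted p = 7.2e-07). The drop in KO IELp against control IELp (-0.41 ± 0.10, edgeR adjusted p = 0.018) was lost without control IELp replicate 2 (adjusted p = 0.099), KO IELp replicate 2 (0.073) or KO IELp replicate 3 (0.089), and in 1 fit of all 12 libraries (0.064). The spans of Slc36a3 and the gene Slc36a3os, introns included, overlap on opposite strands by 3150 bases. The overlap of their exons was not computed, so without strand information it is uncertain how far their counts are affected. Slc36a3os was at 3.17 ± 0.942 CPM in control IELp, 0.651 ± 0.0962 CPM in control IEL and 3.46 ± 1.21 CPM in KO spleen cells, with log2 fold changes of -2.03 ± 0.37 in control IEL against control IELp (edgeR adjusted p = 6.4e-04) and 2.28 ± 0.38 in KO spleen cells against control IEL (adjusted p = 5.1e-04), or -1.31 and 1.40 with limma on CPM + 1. Slc36a3, at 1.48 ± 0.439 CPM in KO spleen cells and 0.285 ± 0.113 CPM in control IEL, was called higher there too (2.24 ± 0.49, edgeR adjusted p = 0.0031, and 0.94 with limma on CPM + 1). It did not pass the filter on low counts in control IEL against control IELp. Its call against KO IELp (1.23 ± 0.44, adjusted p = 0.038, and 0.56 with limma on CPM + 1) was lost without KO IELp replicate 1, 2 or 3 or KO spleen replicate 1 or 3 (adjusted p between 0.066 and 0.16), and with DESeq2 (0.079).

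Of the 11 SLC6 genes, only Slc6a6, the taurine carrier TauT, exceeded 1 CPM in a group mean. It was at 79.0 ± 4.01 CPM in control IELp, 69.0 ± 5.93 CPM in KO IELp, 57.6 ± 6.09 CPM in control IEL and 56.1 ± 6.69 CPM in KO spleen cells, and edgeR called it in no pair. The model gave -0.23 ± 0.10 in control IEL against control IELp (edgeR adjusted p = 0.057), although those libraries did not overlap on the CPM scale, and limma on CPM + 1 called it lower in that comparison and in KO spleen cells against KO IELp. Slc6a8, the creatine carrier, had means between 0.469 and 0.943 CPM and no call. Slc7a6os, a gene beside Slc7a6 on the other strand, had means between 37.4 and 42.0 CPM. Its calls in control IEL against control IELp (0.33 ± 0.10, edgeR adjusted p = 0.014) and in KO spleen cells against control IEL (-0.29 ± 0.11, adjusted p = 0.039) were lost when control IEL replicate 1 was left out (adjusted p = 0.062 and 0.15) and with limma on CPM + 1 (0.42 and 0.21). The second was also lost without control IEL replicate 3 or KO spleen replicate 1 or 3 (adjusted p between 0.090 and 0.14).

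Several low genes were seen in single libraries. Slc6a19, which encodes B0AT1, the neutral amino acid carrier of the gut brush border, held 0, 0 and 39 counts in control IEL replicates 1, 2 and 3. Slc7a9, the light chain of rBAT in gut and kidney, held 2, 0 and 28 counts, and Slc1a1, the glutamate and aspartate carrier EAAT3, held 0, 0 and 12 counts. Control IEL replicate 3 was thus the library that held nearly all counts of these genes in the group, and it also had the highest epithelial sum (759 CPM against 525 and 579 CPM in replicates 1 and 2). Slc6a20a, a proline carrier, held 0, 1 and 7 counts and Slc7a8 held 0, 5 and 31 counts in the same libraries. Slc6a4, the serotonin carrier, held 0, 0 and 16 counts there and 19, 0 and 0 counts in KO spleen cells, where Slc6a3, the dopamine carrier, held 26, 0 and 0 counts. The part of epithelial RNA in these counts was not tested, and of these genes only Slc7a8 passed the filter on low counts in a pair of groups. Slc7a3, the cationic carrier CAT3, held 0, 0 and 27 counts in KO spleen cells, and 10 of the 47 genes held 10 counts or fewer in all libraries.

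**Figure D4:**
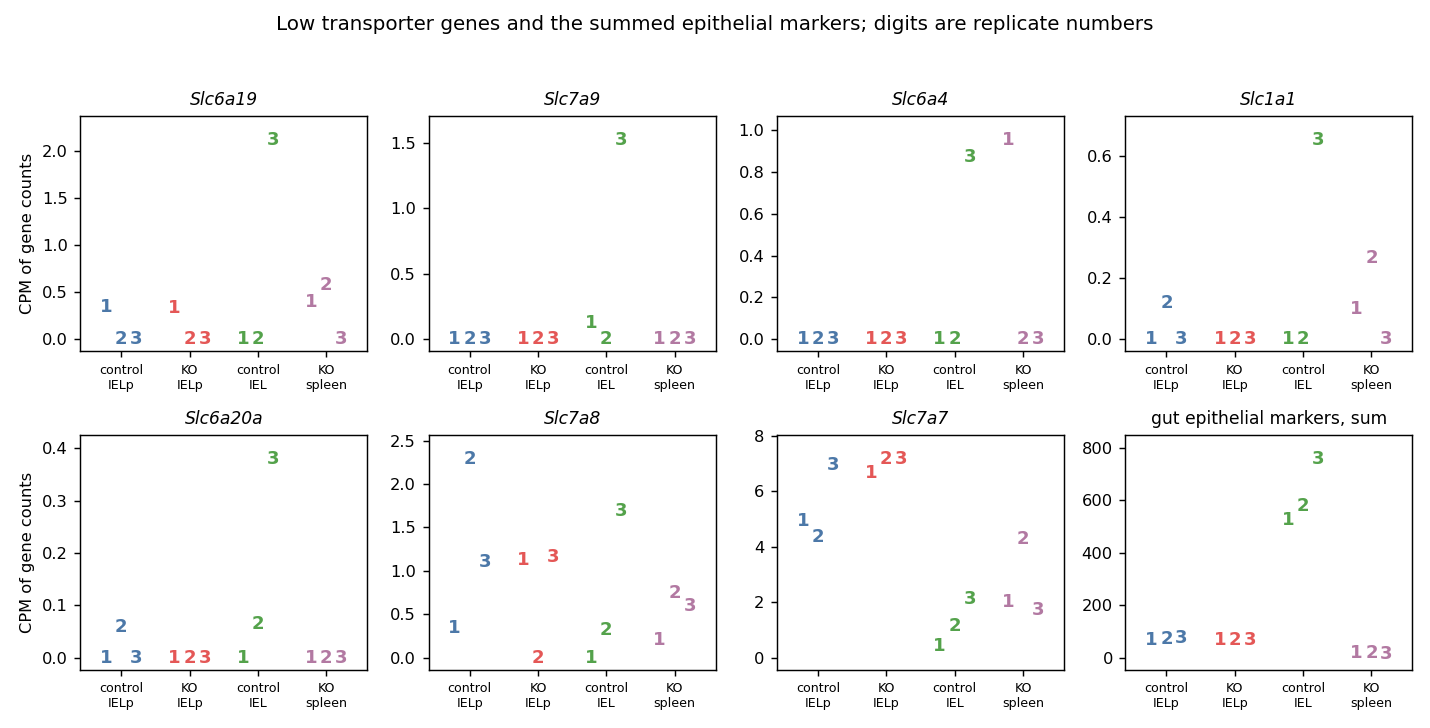
CPM of 7 low transporter genes and the summed CPM of 20 gut epithelial markers by library, with the digit showing the replicate number. In control IEL, replicate 3 is the highest library in all 8 panels, at 759 CPM for the marker sum.

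The difference between the step from control IELp to control IEL and the step from KO IELp to KO spleen cells was tested for 27 transporter genes. It was above 0 for 9 and below 0 for 7, beside 22.5% and 24.2% of 15757 tested genes, or 46.7% in all. Below 0 were genes that fell more, or rose less, on the control step, such as Slc43a1 and Slc7a5 (-2.68 ± 0.15, edgeR adjusted p = 6.9e-10). Above 0 stood Slc3a2 (1.11 ± 0.09, adjusted p = 5.4e-08), Slc43a3 (2.20 ± 0.25, adjusted p = 2.6e-06) and Slc36a1 (2.53 ± 0.40, adjusted p = 7.2e-05). For Slc7a6 and Slc43a2, which moved alike on both steps, the difference was 0.22 (95% interval -0.08 to 0.53) and 0.03 (-0.25 to 0.31), and neither passed the test. Tissue and genotype of the CD8aa cells cannot be told apart in these values.

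Genes that sense and use amino acids were read beside the transporters from 5 lists. Of 44 genes of amino acid sensing by mTORC1, 2 rose and 0 fell in KO IELp against control IELp, with a median log2 fold change of 0.06, beside 6.48% higher and 6.58% lower over all tested genes. At an unadjusted p under 0.05 edgeR had 9 higher and 4 lower, and DESeq2 and limma also called 0 lower. The count of 2 was 4 without control IELp replicate 1, 1 when control IELp replicate 3 or KO IELp replicate 1 was dropped, and 0 when KO IELp replicate 3 was dropped. The 2 genes were Seh1l, a subunit of the GATOR2 complex (0.26 ± 0.06, edgeR adjusted p = 0.016), and Flcn, which acts on the Rag GTPases (0.23 ± 0.07, adjusted p = 0.048). In control IEL against control IELp 13 rose and 10 fell (median 0.06), beside 31.9% and 32.9% of all tested genes. Rptor, the substrate-binding subunit of mTORC1, rose from 69.4 to 182 CPM (1.62 ± 0.08, edgeR adjusted p = 1.8e-08), while Eif4ebp1, a target that holds back translation, fell from 20.4 to 5.70 CPM (-1.60 ± 0.16, adjusted p = 5.4e-06). With scaling to the total count (limma on CPM + 1) the counts of this list became 5 and 19. Over all tested genes the calls then went from 4742 higher and 4897 lower to 3478 higher and 6545 lower. Against control IEL, 10 were higher and 9 lower in KO spleen cells (median -0.01), beside 29.1% and 29.2% of all tested genes. Against KO IELp 7 were higher and 7 lower (median -0.03), or 4 lower without KO IELp replicate 1, beside 22.6% and 22.4%. Rragd, a Rag GTPase, was at 1.40 CPM in control IEL and 28.1 CPM in KO spleen cells (4.16 ± 0.38, edgeR adjusted p = 7.3e-06).

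Targets of the stress factor ATF4 and enzymes of amino acid synthesis were called lower in KO IELp than in control IELp for 6 of 23 tested genes, and 0 were called higher by edgeR, DESeq2 or limma or at an unadjusted p under 0.05 (median -0.07). Over all tested genes edgeR called 6.58% lower and 6.48% higher in this comparison. Phgdh, the first enzyme of serine synthesis, fell from 51.0 to 29.7 CPM (-0.76 ± 0.10, edgeR adjusted p = 7.9e-05). Bcat1, a transaminase of branched-chain amino acids, fell from 32.6 to 17.5 CPM (-0.87 ± 0.14, adjusted p = 5.8e-04). Shmt1 and Mthfd2, enzymes of folate metabolism, fell by log2 fold changes of -0.52 ± 0.10 (edgeR adjusted p = 0.0023) and -0.43 ± 0.11 (adjusted p = 0.015). The count of 6 dropped to 3 without control IELp replicate 1 or KO IELp replicate 3. In control IEL against control IELp 9 of 24 rose and 14 fell (median -0.53), beside 31.9% and 32.9% of all tested genes. The transcription factor gene Cebpb rose (8.43 to 122 CPM, 4.09 ± 0.13, edgeR adjusted p = 8.8e-10) and the serine synthesis gene Psat1 fell (137 to 38.9 CPM, -1.59 ± 0.08, adjusted p = 2.1e-08). Against control IEL, KO spleen cells had 8 of 22 higher and 9 lower (median 0.03), beside 29.1% and 29.2% over all genes, and against KO IELp 2 of 22 higher and 11 lower (median -0.27), beside 22.6% and 22.4%.

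Of the 20 genes of cytosolic aminoacyl tRNA synthetases, which load amino acids onto tRNA, 3 rose and 11 fell in control IEL against control IELp (median -0.22), where 31.9% of all tested genes rose and 32.9% fell. Farsb, of the phenylalanine enzyme, fell from 192 to 74.4 CPM (-1.13 ± 0.08, edgeR adjusted p = 4.8e-07), and Vars, the valine enzyme, from 408 to 237 CPM (-0.55 ± 0.07, adjusted p = 3.1e-05). The count of 11 was 7 without control IELp replicate 1, 6 without control IEL replicate 1 and 7 without control IEL replicate 2. By edgeR 1 was higher and 0 lower in KO IELp than in control IELp (median 0.08; 6.48% and 6.58% over all genes), with 4 higher and 2 lower at an unadjusted p under 0.05 and 0 lower by DESeq2 or limma. The gene was Gars, the glycine enzyme (0.21 ± 0.06, edgeR adjusted p = 0.032), whose call was lost with limma on CPM and without control IELp replicate 3 or any 1 KO IELp library. KO spleen cells had 8 higher and 5 lower than control IEL (median 0.21; 29.1% and 29.2% over all genes), where the 5 became 3 without control IEL replicate 1. Against KO IELp 2 were higher and 4 lower (median -0.06; 22.6% and 22.4% over all genes), with 10 lower under scaling to the total count and 2 lower without KO IELp replicate 2 or 3. That scaling (limma on CPM + 1) also moved the lower calls over all tested genes from 3330 to 4632.

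Of 20 tested genes of glutamine and glutamate use, 2 rose and 2 fell in KO IELp against control IELp (median 0.01), where 6.48% and 6.58% of all tested genes did. The first count was 1 without control IELp replicate 2 or 3 or KO IELp replicate 1 or 3, and the second was 1 without KO IELp replicate 3. Gsr, which reduces glutathione, fell from 94.3 to 71.9 CPM (-0.37 ± 0.07, edgeR adjusted p = 0.0029). In control IEL against control IELp 6 rose and 9 fell (median -0.27), beside 31.9% and 32.9% over all genes, with Odc1, the first enzyme of polyamine synthesis, falling from 124 to 45.0 CPM (-1.23 ± 0.08, edgeR adjusted p = 2.2e-07). Against control IEL, KO spleen cells had 7 higher and 4 lower (median 0.28), beside 29.1% and 29.2%, and against KO IELp 4 higher and 7 lower (median -0.09), beside 22.6% and 22.4%. Of 17 tested carriers outside the 7 families, most of them in mitochondria or lysosomes, 1 rose (2 without control IELp replicate 2) and 4 fell in KO IELp against control IELp (median -0.08), with the shares over all genes in each comparison as for the glutamine list. Slc25a22, a mitochondrial glutamate carrier, rose (0.53 ± 0.09, edgeR adjusted p = 0.0012), and Slc25a39, a mitochondrial glutathione carrier, fell (-0.41 ± 0.07, adjusted p = 0.0014). In control IEL against control IELp 7 rose (4 without control IELp replicate 3 or control IEL replicate 1) and 7 fell (median 0.06), and Slc16a10, the aromatic amino acid carrier TAT1, rose from 1.87 to 7.82 CPM (2.29 ± 0.23, edgeR adjusted p = 8.2e-06). The epithelial markers were higher in control IEL too, and their part in the rise of Slc16a10 was not tested. KO spleen cells had 5 higher and 4 lower than control IEL (median -0.03), and 3 were higher and 3 lower than in KO IELp (median 0.00).

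**Figure D5:**
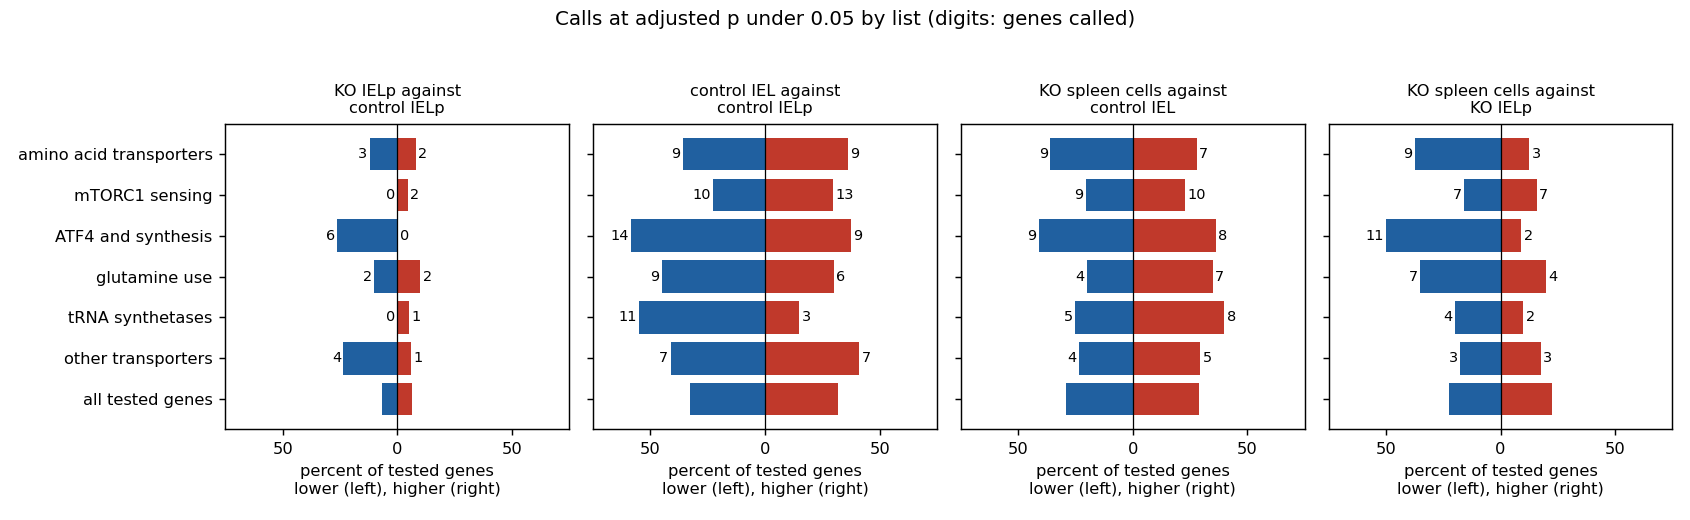
Percent of tested genes called lower (left) or higher (right) by edgeR at an adjusted p under 0.05 in each list and among all tested genes, with the number of genes called beside each bar. In KO IELp against control IELp the ATF4 and synthesis list has 6 genes lower and 0 higher, and in control IEL against control IELp the tRNA synthetases have 11 lower and 3 higher.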

How the data were processed

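The authors deposited counts per gene symbol and a table of values in FPM, which equal CPM of the gene counts, as tested on the files (the deposited counts are recovered to within 8.1e-05). The build mm10 and the tools STAR, HTSeq, DESeq2, Trimmomatic and bcl2fastq 2.17 stand in the submitters' processing notes, without order or settings. Per the labels 40000 cells were sorted per sample, with RNeasy Plus Micro, SMARTer Ultra Low Input and Nextera XT kits and 76 bp read pairs. The sources used here name neither annotation nor strand setting. Rows that name no gene took 58.8% to 61.0% of the counts in a library and were left out, and 27 symbols that read as dates were kept as given. Gene counts per library were between 13432598 and 19947734, and their number limits the precision of low genes.

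Each pair of groups was fitted on its 6 libraries with edgeR 4.0.16 (R 4.3.3), with filterByExpr, TMM factors and a 2-sided quasi-likelihood test, and the difference between steps on all 12. SE was computed as |log2 fold change| divided by sqrt(F). The script was tested on simulated counts. Alternatives were median-of-ratios factors, DESeq2 1.42.0, no filter, a replicate block, a single fit over 12 libraries, limma 3.58.1 on log2 of CPM plus 1 or plus 0.1, and leaving out each library in turn. Replicates differed beyond sampling noise (mean chi-square per gene between 4.30 and 18.2). The members, the 5 gene lists and the markers were chosen with earlier results of these data known. Named are all members with a mean of 10 CPM in a group, others that passed the threshold and reached 1 CPM in a group or that are given by their low counts, from each list up to 4 genes with the smallest adjusted p in a comparison, and Zbtb7a. Slc1a4, which stayed under 1 CPM, and the low genes seen in 1 library were named after their values were seen. Gene positions and exon lengths are from GENCODE M21, promoters from RefSeq (37 of 47 genes matched).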

Additional observations from a re-analysis of the deposited data

Results flagged for a closer look

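The step from IELp to CD8aa cells differed between control and KO cells for 16 of 27 tested transporter genes, by a test of the difference itself (edgeR, all 12 libraries). Over all 15757 tested genes the same test called 46.7%. Values are the log2 fold change of control IEL over control IELp minus that of KO spleen cells over KO IELp. The KO CD8aa cells came from spleen, so genotype and tissue cannot be told apart.

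The difference was below 0 for Slc1a4 (-4.58, adjusted p = 0.025), Slc43a1 (-4.24, 6.0e-11), Slc7a4 (-3.10, 0.028) and Slc7a5 (-2.68, 6.9e-10). It was also below 0 for Slc36a3os (-2.33, 6.5e-04), Slc7a1 (-1.09, 1.1e-05) and Slc38a1 (-0.71, 5.5e-04), with edgeR adjusted p second in each bracket. Slc1a4, the neutral carrier ASCT1, rests on few reads, with 18, 11 and 8 counts in control IELp, 5, 4 and 1 in KO IELp, 0, 0 and 3 in control IEL and 21, 3 and 0 in KO spleen cells. Without KO spleen replicate 1 its difference was -2.41 (edgeR adjusted p = 0.31). It was also lost without control IELp replicate 1, KO IELp replicate 3, or control IEL replicate 1 or 2 (adjusted p between 0.066 and 0.069), and was -7.85 without control IEL replicate 3 (adjusted p = 0.013). For Slc7a4 the difference without KO spleen replicate 1 was -1.74 (adjusted p = 0.27), and it was lost as well without control IELp replicate 1 or 2, KO IELp replicate 1 or 3, or control IEL replicate 3 (adjusted p between 0.054 and 0.089).

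The difference was above 0 for Slc38a8 (6.43, adjusted p = 3.0e-05), Slc36a1 (2.53, 7.2e-05), Slc43a3 (2.20, 2.6e-06), Slc36a4 (1.14, 1.4e-04) and Slc3a2 (1.11, 5.4e-08). It was smaller for Slc38a7 (0.71, 0.029), Slc1a5 (0.50, 9.8e-05), Slc7a6os (0.35, 0.044) and Slc38a10 (0.31, 0.0056), again with the edgeR adjusted p second. Slc38a8 passed the filter on low counts through control IEL, where it is high. It gave 7.59 without control IELp replicate 1 and 7.28 without KO spleen replicate 1. With limma on CPM + 1 the difference shrank to 3.00 for Slc38a8, -0.93 for Slc1a4, -1.38 for Slc7a4 and -1.43 for Slc36a3os, all still past the threshold, while with CPM + 0.1 the call of Slc7a4 was lost (adjusted p = 0.11). For Slc38a7 the call was lost without control IELp replicate 2 or 3, KO IELp replicate 1, control IEL replicate 2, or KO spleen replicate 1 or 2 (adjusted p between 0.054 and 0.096). With limma on CPM + 1 the calls of Slc38a7, Slc38a10 and Slc7a6os were lost (adjusted p = 0.070, 0.096 and 0.22). For Slc7a6os it was lost without any 1 control IELp library, KO IELp replicate 1 or 3, control IEL replicate 1 or 3, or KO spleen replicate 1 or 3 (adjusted p between 0.066 and 0.11).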

How the results depend on the processing

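Of 67 calls of single transporter genes, 16 were lost in at least 1 setting, none reversed, and 10 further calls were gained in at least 1 setting, over 7 settings of the model and the leaving out of each library. Gained calls were those of Slc6a6, Slc36a4, Slc36a1, Slc1a5, Slc7a6, Slc43a2 and Slc43a3 in 1 or 2 pairs each and of Slc38a2 and Slc38a9 in the difference between steps. In KO IELp against control IELp the count of lower transporters was 1 (main value 3) in 1 fit of all 12 libraries. Leaving out 1 library gave 1 to 2 higher and 1 to 4 lower, with 1 and 1 without control IELp replicate 2 or without KO IELp replicate 3. In KO spleen cells against KO IELp 6 transporters were higher with no filter (main value 3). Low counts limit the calls of genes under 1 CPM, and the small changes of KO IELp are at the limit of 3 libraries.

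With limma on CPM plus 1 or plus 0.1, which scales to the total count and moves the median of all genes by -0.21 or -0.24 in control IEL against control IELp, the list counts moved as follows. In that comparison mTORC1 sensing had 5 higher and 19 lower, tRNA synthetases 1 higher and other transporters 3 higher. In KO spleen cells against control IEL glutamine use had 11 higher and tRNA synthetases 2 lower. In KO spleen cells against KO IELp mTORC1 sensing had 12 or 11 lower, glutamine use 2 higher, tRNA synthetases 10 lower and other transporters 5 lower. In KO IELp against control IELp tRNA synthetases had 0 higher, glutamine use 1 higher and, with plus 0.1, mTORC1 sensing 1 higher. With no filter that comparison gave 6 mTORC1 sensing genes, 2 tRNA synthetases and 2 other transporters higher, and DESeq2 gave 2 other transporters higher. Over all tested genes, limma on CPM plus 1 called 3478 higher and 6545 lower in control IEL against control IELp (edgeR 4742 and 4897). It called 5350 and 3651 in KO spleen cells against control IEL (edgeR 4323 and 4337) and 2570 and 4632 against KO IELp (edgeR 3370 and 3330). In KO IELp against control IELp it called 815 and 1078 (edgeR 948 and 963). The tool, the filter and the scaling differ between these settings, and the cause of each shift was not tested.

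Leaving out 1 library in KO IELp against control IELp gave 0 to 4 higher for mTORC1 sensing, 3 to 5 lower for ATF4 and synthesis, 1 to 2 higher and 1 to 2 lower for glutamine use, 0 to 1 higher for tRNA synthetases and 1 to 2 higher for other transporters. It gave 6 to 11 lower for tRNA synthetases and 4 to 7 higher for other transporters in control IEL against control IELp. In KO spleen cells against control IEL it gave 3 to 5 lower for tRNA synthetases. In KO spleen cells against KO IELp it gave 4 to 8 lower for mTORC1 sensing and 2 to 4 lower for tRNA synthetases.

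The correlation of same-numbered deviations was between -0.036 and 0.082. With 3 libraries per group this cannot decide whether replicate numbers pair the libraries. In control IEL against control IELp and in KO spleen cells against KO IELp each library correlated best with its own number, which is a hint from the data only. With the replicate block, KO IELp against control IELp gave 1 mTORC1 sensing gene and 1 glutamine use gene higher (main value 2 each). In 1 fit of all 12 libraries these counts were 1 and 1.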
